A study of Homo sapiens with 3 samples.

Results

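The regions described here are summits of SOX4 chromatin immunoprecipitation sequencing (ChIP-seq) that lie inside protein-coding genes, away from the gene ends, in BT549 cells. They were chosen by position and by a measured value, the authors' score. A summit belongs when that score (the −log10 of the caller's p or q) is below 15, when it falls inside a coding gene and when it is over 1 kb from every coding gene end. Autosomes 5, 8 and 9 were left out. The rule found 708 of the 7511 summits in all (9.43%), of which 121 came from replicate 1, 130 from replicate 2 and 457 from replicate 3 (mean 236 ± 191, SD, n = 3). The full lists held 1368, 1713 and 4430 summits, so replicate 3 gave 64.5% of the members, and the members were 16%, 17.6% and 16.3% of each library's summits on the chromosomes used. BT549 is an established cell line from a human breast carcinoma that lacks hormone receptors and HER2. There is 1 group of 3 libraries, all titled UT, an abbreviation that the labels do not spell out, all from BT549 cells at passage 5 per the labels and all made with the same Abcam SOX4 antibody after fixation with the protein crosslinker DSG and formaldehyde. No input, IgG or SOX4-depleted library was used here, so every comparison is between libraries or between places in the genome. Whether each library had its own culture is not in the labels, so differences among the 3 may be technical.

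SOX4 is a transcription factor of the SRY-related high-mobility-group family, which binds the minor groove of DNA and bends it. In breast epithelium it is known for roles in progenitor state, TGF-beta responses and epithelial-mesenchymal transition. The body of a gene can hold introns with enhancers, and many genes also have internal promoters, from which shorter transcripts start. Antisense and divergent long non-coding RNAs often begin at the same places. The submitters' processing notes name hg19, but the contig names and the highest positions are those of GRCh38, and all positions below are on GRCh38.

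Many of the summits lay at internal starts, and RefSeq promoter windows (GRCh38.p14, 300 bases, of which 250 lie before a transcription start and 50 run from it) show how close they came. Of the 632 joined regions, 75 had a summit inside such a window, 62 of them windows of coding genes and 13 of long non-coding RNAs. Few internal promoters held one: of the 7120 windows of starts inside coding gene bodies, 1.04% had a summit. All 62 coding windows belonged to a gene that itself contains the summit, which the rule on coding gene ends requires. The 6 windows that hold summits of at least 2 libraries from the same joined region are printed because they show more than 1 library at the same internal promoter. The LOC105372390 window on chromosome 19, not printed, held replicate 3 at 37078151 and replicate 1 at 37078362, which belong to separate regions. Each printed window reads 5′ to 3′ on the strand of its gene, and capitals mark the summit of each library with 5 bases on either side.
CFAP70: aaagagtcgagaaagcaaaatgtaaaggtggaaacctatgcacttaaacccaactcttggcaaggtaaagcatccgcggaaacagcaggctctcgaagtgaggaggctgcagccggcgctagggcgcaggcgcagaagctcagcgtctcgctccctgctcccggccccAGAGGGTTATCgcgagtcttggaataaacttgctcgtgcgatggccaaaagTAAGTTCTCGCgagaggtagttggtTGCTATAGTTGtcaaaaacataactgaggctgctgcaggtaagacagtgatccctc
FBXL5: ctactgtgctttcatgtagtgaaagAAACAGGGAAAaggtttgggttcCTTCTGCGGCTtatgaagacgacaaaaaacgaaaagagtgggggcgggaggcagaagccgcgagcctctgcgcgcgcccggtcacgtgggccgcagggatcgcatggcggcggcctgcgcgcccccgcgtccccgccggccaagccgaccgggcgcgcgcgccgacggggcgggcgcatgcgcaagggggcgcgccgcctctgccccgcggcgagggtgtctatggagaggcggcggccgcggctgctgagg
G3BP2: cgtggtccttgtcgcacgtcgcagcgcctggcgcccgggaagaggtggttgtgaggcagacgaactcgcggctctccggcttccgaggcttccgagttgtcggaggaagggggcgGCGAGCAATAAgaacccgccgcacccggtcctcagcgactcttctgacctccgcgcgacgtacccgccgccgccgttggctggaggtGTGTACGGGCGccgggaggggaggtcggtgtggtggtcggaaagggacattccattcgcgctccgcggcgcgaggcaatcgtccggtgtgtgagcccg
MTHFD2L: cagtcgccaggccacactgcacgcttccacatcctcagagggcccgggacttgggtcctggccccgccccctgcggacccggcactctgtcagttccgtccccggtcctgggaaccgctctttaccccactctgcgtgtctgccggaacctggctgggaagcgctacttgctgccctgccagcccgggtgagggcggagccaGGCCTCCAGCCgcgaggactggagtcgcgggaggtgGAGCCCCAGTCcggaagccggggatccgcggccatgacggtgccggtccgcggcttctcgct
PHC2-AS1: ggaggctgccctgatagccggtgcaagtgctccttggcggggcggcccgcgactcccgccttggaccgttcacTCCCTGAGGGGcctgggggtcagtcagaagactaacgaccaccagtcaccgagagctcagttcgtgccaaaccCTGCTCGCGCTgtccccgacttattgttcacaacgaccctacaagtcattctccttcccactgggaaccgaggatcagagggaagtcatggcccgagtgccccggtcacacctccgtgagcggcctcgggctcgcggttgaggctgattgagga
SPART: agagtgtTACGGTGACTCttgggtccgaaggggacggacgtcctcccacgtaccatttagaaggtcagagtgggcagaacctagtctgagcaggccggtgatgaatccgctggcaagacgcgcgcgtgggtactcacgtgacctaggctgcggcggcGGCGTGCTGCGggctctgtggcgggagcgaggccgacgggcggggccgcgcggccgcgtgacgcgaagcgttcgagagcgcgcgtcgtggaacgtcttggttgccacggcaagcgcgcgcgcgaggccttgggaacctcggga

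The CFAP70 window is chr10:73358696-73358995 on the minus strand, inside the gene, and the summits in it lay 4.16 kb or more from the nearest gene end. CFAP70 encodes a protein of cilia and flagella. Its summits lay at base 250 of the window in replicate 1, base 174 in replicate 2 and base 225 in replicate 3, counted from 1 at the 5′ end, where base 251 is the transcription start. The scores were 8.22, 4.49 and 4.64. This was the 1 window with all 3 libraries. The FBXL5 window (chr4:15655308-15655607, minus strand), of a gene for an iron-sensing F-box protein, held replicate 1 at base 31 (score 8.64) and replicate 3 at base 54 (3.24). These positions also lie inside the overlapping gene FAM200B. The G3BP2 window (chr4:75673108-75673407, minus strand), of a stress granule protein gene, held replicate 1 at base 121 (3.52) and replicate 3 at base 208 (5.33). The MTHFD2L window (chr4:74157868-74158167, plus strand), of a mitochondrial folate enzyme gene, held replicate 2 at base 208 (3.82) and replicate 3 at base 244 (3.13). PHC2-AS1 is a long non-coding RNA inside PHC2, a Polycomb gene. Its window (chr1:33350102-33350401, plus strand) held replicate 2 at base 79 and replicate 3 at base 152, with scores of 5.10 and 5.12. The SPART window (chr13:36346345-36346644, minus strand), of the spartin gene, held replicate 1 at base 13 (3.54) and replicate 3 at base 163 (6.12). In 4 of the 6 windows at least 1 library scored its summit under 4, in the lower part of the range.

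The windows with a summit were rich in G and C. Their median GC content was 69.7% (quartiles 63.2 and 73.3%, 75 windows), against 54.0% (43.9 and 64.3%) in all 7120 windows of starts inside coding gene bodies and 58.7% in all 30263 windows on these chromosomes. The median number of CpG dinucleotides was 32, against 6 and 14. Short forms of the SOX core motif were searched on both strands. ACAAT was in 12 of the 75 windows (16%), against 32.0% of the windows inside gene bodies and 27.4% of all windows. ACAAAG was in 9 (12.0%), against 18.7% and 15.97%, and the longer AACAAAG, whose matches are all counted under ACAAAG too, in 3 (4.0%), against 6.10% and 5.13%. Of the 6 printed windows, PHC2-AS1 held ACAAT and none held the other motifs. The base composition differs between these sets of windows, and its part in the motif counts was not tested. Overlapping windows of 1 gene were counted separately in the totals.

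Over wider distances, 265 of the 708 summits (37.4%) lay within 1 kb of an annotated start, 172 of them within 250 bp. The share was 36.4% in replicate 1 (44 of 121, exact Clopper-Pearson 95% interval 27.8 to 45.6%), 21.5% in replicate 2 (28 of 130, 14.8 to 29.6%) and 42.2% in replicate 3 (193 of 457, 37.7 to 46.9%), a mean of 33.4% ± 10.7 (SD, n = 3). Replicate 2 was the lowest and its interval overlapped that of replicate 1 but not that of replicate 3. Only 1.29% of the length of these gene bodies lies within 1 kb of a start, and every library was far above that. A start of the containing gene was the nearest in 219 of the 265 cases and a start of a long non-coding RNA in 46. Under the rule, a coding start within 1 kb can only belong to a containing gene. The median distance was 102 bp downstream of the start, with 174 summits at or downstream of it and 91 upstream. Among summits of the same score range outside coding genes, 7.43%, 6.38% and 10.2% were within 1 kb of a start in replicates 1 to 3, and among those at most 1 kb from the end of a coding gene the shares were 90.1%, 90.2% and 88.6%. With chromosomes 5, 8 and 9 included there were 1438 gene-body summits, and the mean share near a start was 22.3%. The rule itself sets part of these contrasts, since it removes the outermost starts from gene bodies and most starts lie at gene ends, so no test of them was made.

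**Figure D1:**
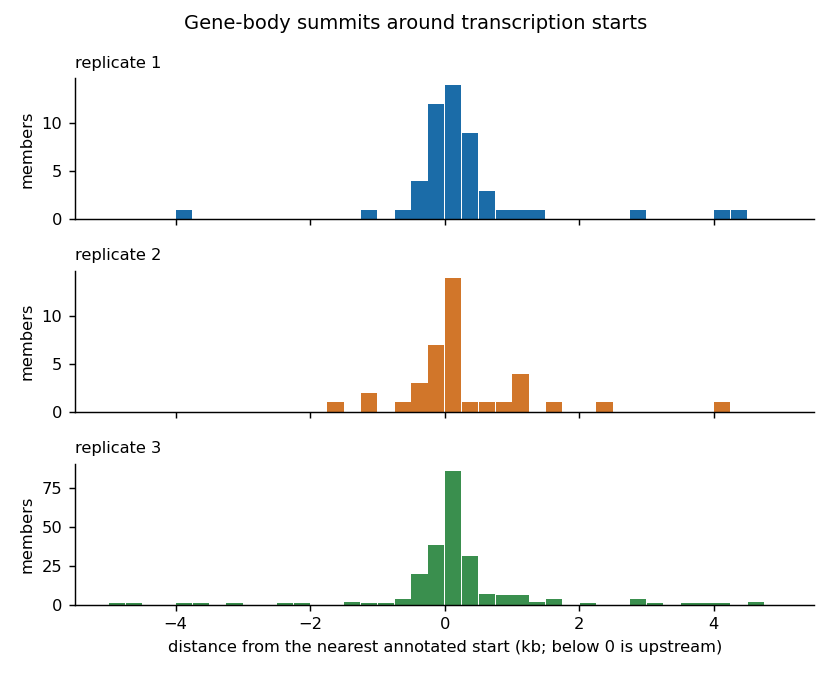
Number of gene-body summits (y axis) by distance from the nearest annotated transcription start (x axis, kb, values below 0 upstream, bins of 250 bp), 1 panel per library with its own scale. In each library the tallest bin is the one just downstream of the start, and 172 of the 708 summits lie within 250 bp of one.

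Along the gene, the summits leaned towards the start. Strand was known for 620 of them. The first 10% of the gene's length held 16.2%, 17.7% and 17.7% of the summits in replicates 1 to 3, and the last 10% held 4.76%, 6.19% and 6.22%. The 3 libraries had the same order. The 254 summits within 1 kb of an annotated start had 28.0% in the first 10% of the gene and 0.787% in the last. The other 366 had 10.1% in the first 10% and 9.56% in the last, close to an even spread.

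**Figure D2:**
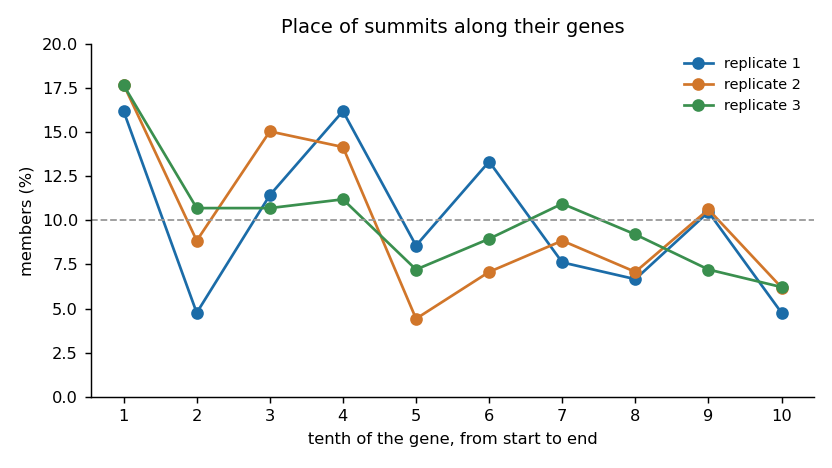
Share of gene-body summits (y axis, %) in each of 10 equal parts of the containing gene from its start to its end (x axis), 1 line per library, with a dashed line at an even 10%. The first holds 16.2 to 17.7% and the last 4.76 to 6.22%.

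The next question was how often a second library had the same site, which the rule did not use. A summit of another library, of any score, lay within 200 bp of 46 of the 121 summits of replicate 1 (38.0%, exact 95% interval 29.3 to 47.3%), 44 of 130 in replicate 2 (33.8%, 25.8 to 42.7%) and 53 of 457 in replicate 3 (11.6%, 8.81 to 14.9%). Replicate 3 was low and its interval lay apart from the others, and its list is the longest. Summits outside coding genes were shared more often in each library, at 54.5%, 45.1% and 22.6%, but their median scores were higher too. The mean difference was −12.9 percentage points ± 3.07 (SD, n = 3; exact two-sided permutation test over the libraries, p = 0.25, the smallest that 3 libraries allow), with the gene-body summits lower in 3 of 3 libraries. It was −7.89 points without replicate 1, −8.14 without replicate 2 and −7.06 over all autosomes. A pair of shared summits counts in each of its libraries, so the 3 differences of a comparison are not independent. Summits within 1 kb of a coding gene end were shared at 50.5%, 56.5% and 13.0%, a mean difference of −12.2 points ± 10.6 (exact two-sided permutation p = 0.25), and 3 of 3 libraries were lower. That difference came mainly from replicate 2, at −22.6 points, and was −1.42 points in replicate 3. With chromosomes 5, 8 and 9 it was −21.0 points. It shrank to −6.70 points without replicate 1, −5.91 without replicate 2 and −2.10 without replicate 3, to −3.14 points with a window of 100 bp and to −4.60 points with lists of equal length. With that window and with lists of equal length, not all 3 libraries were lower (exact two-sided permutation p = 0.5 in both). The same held with no upper score limit and with scores of at least 5 (exact two-sided permutation p = 0.5 in both). Without replicate 1, and without replicate 3, the remaining libraries differed in direction.

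**Figure D3:**
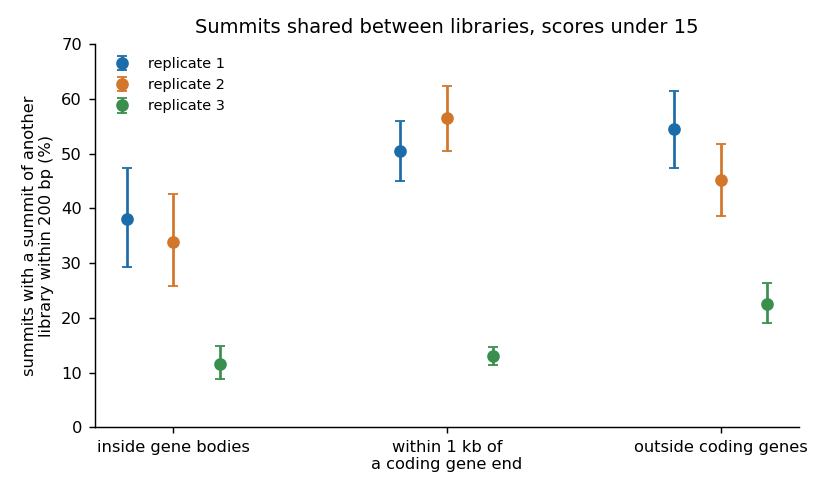
Share of summits scoring under 15 (y axis, %) that have a summit of another library within 200 bp, for the 3 places in the genome (x axis). Points are libraries and bars exact 95% intervals, which cover counting error only. The gene-body points lie below those of the same library in both other places.

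Sharing went with the score. In replicate 3, 7.08% of the gene-body summits scoring under 5 were shared (15 of 212), 12.8% of those from 5 to under 10 (30 of 234) and 8 of 11 of those from 10 to under 15. In replicate 2 the shares were 16 of 64 (25%), 36.2% and 7 of 8. In replicate 1 they were 32.6%, 41.2% and 3 of 7. Outside coding genes the shares under 5 were 41.4%, 35.1% and 12.4% in replicates 1 to 3. From 5 to under 10 they were 50.98%, 41.7% and 22.97%. In both bands the gene-body summits were lower in each library. From 10 to under 15 the shares outside coding genes were 80.95%, 83.9% and 67.5%. There the gene-body summits were higher in replicates 2 and 3, with only 8 and 11 of them. The part of score in the difference between places was not tested. Summits within 1 kb of an annotated start were shared at 52.3% in replicate 1 (23 of 44), against 29.9% of its other gene-body summits (23 of 77). In replicate 2 the values were 50.0% (14 of 28) and 29.4% (30 of 102), and in replicate 3 12.4% (24 of 193) and 10.98% (29 of 264). The exact 95% intervals overlapped in every library.

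Joined across libraries by gaps of at most 200 bp, the 708 summits made 632 regions. Of these, 571 came from 1 library, 47 from 2 and 14 from all 3. Replicate 3 alone gave 406 regions (64.2%), replicate 1 alone 77 and replicate 2 alone 88. The 61 regions of at least 2 libraries had summits a median of 54 bp apart where 2 libraries met and 99.5 bp from first to last where all 3 did. Leaving out 1 library reduced the 61 to 31 without replicate 1, 33 without replicate 2 and 24 without replicate 3. A further 6 shared summits had partners outside the rule alone. At CUL4A, a cullin gene, the replicate 1 summit scored 6.38 and those of replicates 2 and 3 scored 15.5 and 16.5.

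The 14 regions of all 3 libraries were spread over 13 genes. Of them, 4 lay within 1 kb of an annotated start, against 206 of the 571 regions of 1 library (36.1%). Those 4 were at CFAP70, EPC1, TTLL9 and LUC7L2. EPC1 encodes a scaffold subunit of the NuA4 histone acetyltransferase. Its summits at chromosome 10, 32346518, 32346491 and 32346587, scored 9.65, 8.68 and 6.995 in replicates 1 to 3, and the nearest lay 571 bp downstream of an EPC1 start, 32.2 kb into the gene. The LUC7L2 region, of a gene for a splicing factor of the U1 complex, spanned chromosome 7, 139359475 to 139359607, and scored 9.90, 4.88 and 3.64. It also lies in the readthrough gene FMC1-LUC7L2. TTLL9, a tubulin-modifying enzyme gene, had the lowest scores of the set in replicates 1 and 2, 3.18 and 3.14, and 4.77 in replicate 3, at chromosome 20, 31879948 to 31880062.

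The other 10 regions of all 3 libraries were 4.02 to 58.9 kb from the nearest start. RAB11FIP3, which encodes an effector of the recycling-endosome GTPase RAB11, held 2 of them, 32.8 kb and 69.3 kb from its start. The first, at chromosome 16, 458451 to 458550, scored 7.26, 13.1 and 8.09 in replicates 1 to 3. The second, at 494886 to 494986, scored 5.41, 6.76 and 6.38. At both, replicate 1 was the lowest and replicate 2 the highest. MUC3A, a membrane mucin gene with tandem repeats, ranked first, with scores of 10.8, 11.7 and 9.90 at chromosome 7, 100958257, 100958062 and 100958314. TTC34, a tetratricopeptide repeat gene, scored 6.10, 9.39 and 8.11 at chromosome 1, 2653909 to 2654013, 89.7% of the way along the gene. TMEM242 scored 5.52, 9.20 and 14.2 at chromosome 6, 157312869 to 157313020. It held a second region about 2 kb away with replicates 2 and 3 at 12.28 and 14.003, where the replicate 1 summit scored 16.6 and so fell outside the rule. DUX4, a homeobox gene of a subtelomeric repeat array, ranged from 4.81 in replicate 1 to 14.9 in replicate 3 at chromosome 4, 190177796 to 190177839. Copies of its repeat cannot be told apart here.

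PHRF1, a PHD and RING finger gene, scored 6.32, 10.4 and 7.44 at chromosome 11, 585415 to 585469, 8.97 kb from its start. ACSL3, an enzyme gene that activates long-chain fatty acids, had summits within 6 bp of each other at chromosome 2, 222866405 to 222866411, with scores of 8.50, 6.91 and 5.69. KCNIP2, which encodes a potassium channel partner, scored 4.53, 4.65 and 5.88 at chromosome 10, 101830748 to 101830923. DYNC2I1, of the dynein motor of cilia, scored 4.18, 4.56 and 5.17 at chromosome 7, 158915503 to 158915577. Neither exons and introns nor repeats were annotated here, so these places are given by distance only.

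**Figure D4:**
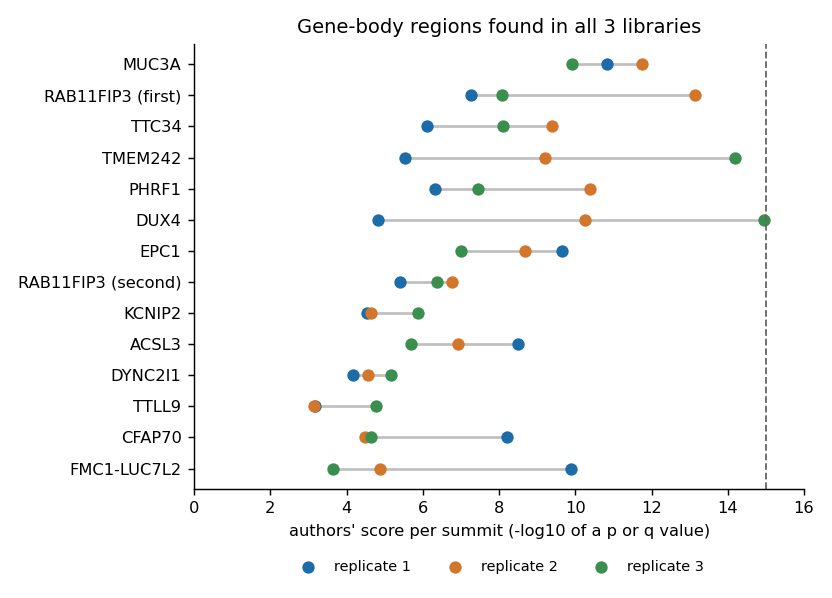
The authors' score (x axis, −log10 of a p or q value) of each library at the 14 gene-body regions found in all 3 libraries (y axis, in order of the worst rank), with a grey line from lowest to highest and a dashed line at the limit of 15. The order of the libraries differs between regions, and DUX4 and TMEM242 spread the most.

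Among the 47 regions of 2 libraries, the highest ranked was in DCDC2C, a doublecortin-domain gene, at chromosome 2, 3725443 to 3725526, with 13.1 in replicate 2 and 12.5 in replicate 3. SRSF11, an SR splicing factor gene, scored 7.82 in replicate 2 and 10.7 in replicate 3 at chromosome 1, 70221427 to 70221503, 47 bp downstream of an internal start. RBPJ, the DNA-binding effector of Notch signalling, scored 6.58 in replicate 1 and 7.13 in replicate 2 at chromosome 4, 26319488 to 26319594. Those summits lay 214 kb into the gene and 152 bp or more upstream of an internal RBPJ start. SEMA3C, a secreted semaphorin gene, scored 5.56 in replicate 1 and 11.6 in replicate 3 at chromosome 7, 80919245 to 80919353, the nearer of them 194 bp upstream of an internal start. KREMEN1, a co-receptor gene of the Wnt inhibitor DKK1, had summits 1 bp apart at chromosome 22, 29120310 and 29120311, with 8.08 in replicate 1 and 7.40 in replicate 2. SERINC2 (8.92 in replicate 2 and 9.50 in replicate 3), RPH3AL (9.18 and 8.48 in the same libraries), VPS13D (6.19 in replicate 1 and 12.5 in replicate 2) and FAM120B (5.32 and 8.15) completed the ranked set. At the FAM120B region replicate 3 had a summit too, but its score was not below 15 and so it fell outside the rule. RPH3AL encodes a Rab effector of exocytosis and VPS13D a lipid transfer protein.

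Of all 61 regions of at least 2 libraries, 27 (44.3%) lay within 1 kb of an annotated start, at a median distance of 157 bp. In 22 of the 27 the nearest start was a coding one, which the rule places in a containing gene, and in 5 that of a long non-coding RNA. The 5 were PHC2-AS1, SPART-AS1, RAB33B-AS1, SLC25A28-DT and CAHM. The 22 included transcription factor genes, named after their values were seen. KLF7 scored 8.52 in replicate 1 and 4.94 in replicate 3, ZNF217 3.65 and 7.12, and ZNF43 5.85 and 4.87 in the same libraries. MBNL1, a splicing regulator gene, scored 6.37 in replicate 2 and 5.09 in replicate 3. Among the other 34 regions was one in MAML2, which encodes a coactivator that binds the Notch complex with RBPJ. It lay at chromosome 11, 96243562 to 96243726, 99.5 kb downstream of a MAML2 start, and scored 3.36 in replicate 1 and 7.64 in replicate 3.

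Most genes with a summit had 1. Of 15704 coding genes on these chromosomes with a body beyond 1 kb from each end, 554 had at least 1 region (3.53%), 62 had one of at least 2 libraries (0.395%) and 78 had at least 2 regions (0.497%). The median length was 108 kb for the 554 genes and 26.8 kb for all 15704. The share of genes with a region climbed from 0.318% in the shortest of 10 equal groups of genes to 12.1% in the longest (190 of 1571). Per Mb of gene body, the shortest group had 2.12 regions (5 regions in all), groups 3 to 9 had 0.677 to 0.944, and the longest had 0.422.

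**Figure D5:**
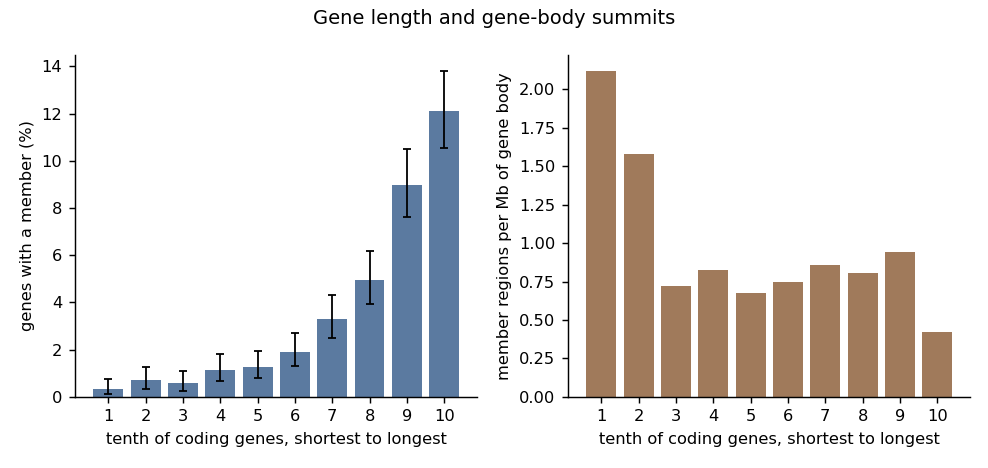
Coding genes in 10 equal groups from shortest to longest (x axis), with the share that holds a gene-body region (left, %, bars with exact 95% intervals) and the number of regions per Mb of gene body (right). The share climbs to 12.1% in the longest group, which has the lowest density at 0.422 per Mb.

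RPH3AL and TTC34 held the most regions, 4 each, from all 3 libraries. In RPH3AL the 5 summits scored 4.74 to 10.3 over 42.5 kb, and in TTC34 the 6 scored 4.45 to 9.39 over 106 kb. Another 6 genes held 3 regions each. ETS1, a transcription factor gene, had 1 summit of replicate 2 and 2 of replicate 3 with scores of 4.79 to 7.20, FRMD6, a Hippo pathway scaffold gene, had 2 of replicate 2 and 1 of replicate 3, and PTPRN2, a gene of dense-core vesicles, had 1 and 2. BCAR3, an adaptor gene of integrin signalling, DST, a cytoskeletal linker gene, and STARD13 had 3 replicate 3 summits each. Of the genes with 2 regions from all 3 libraries, CFAP70 and DUX4 came first by symbol, tied with FAM120B, RAB11FIP3, RAB33B, SFR1 and TMEM242. The 2 DUX4 regions were only 0.397 kb apart from first to last summit.

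Chromosomes differed in density. Over all libraries the median chromosome had 0.623 summits per Mb of gene body. Chromosome 13 was the highest with 1.44 per Mb (47 summits) and chromosome 15 the lowest with 0.123 (5 summits). Chromosome 1 followed chromosome 13 with 1.18 per Mb. By library chromosome 13 had 0.276, 0.215 and 0.951 per Mb in replicates 1 to 3, against 0.122, 0.131 and 0.459 over all gene bodies. It was the highest chromosome in replicates 1 and 3, and in replicate 2 chromosome 14 was, with 0.301. Copy number and sequencing depth of each chromosome were not measured here, and their part was not tested. Outside coding genes the density over these chromosomes was 0.149, 0.174 and 0.386 per Mb.

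Genes were then read by pathway, from 15 lists, each count beside the 3.53% of all coding genes. The lists differ in gene length, so the number of regions per Mb of gene body, 0.629 over all genes, is given too. The Hippo, TEAD and AP-1 list, which holds the transcriptional arm of growth control by cell contact, had 5 of 24 genes (20.8%, exact 95% interval 7.13 to 42.2%) and 3.08 regions per Mb. YAP1, its coactivator, had summits of replicate 1 at chromosome 11, 102111533 (score 5.68), and of replicate 2 at 102111489 (5.36). They lay 1.09 and 1.04 kb from the start of the gene and so just inside the rule. WWTR1, which encodes the related coactivator TAZ, had a replicate 3 summit of 5.48, 175 bp downstream of an internal start. CCN2, a matrix protein gene and classical YAP target, had a replicate 1 summit of 5.69 at 1.10 kb from its start. VGLL4 and AMOTL2 had 1 summit each, from replicates 2 and 3. Of the 5 genes, 1 had a region of at least 2 libraries.

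The TGF-beta and SMAD list had 3 of 28 genes (10.7%, 2.27 to 28.2%, 0.993 per Mb), each with 1 summit. TGFBR3, a co-receptor gene, had a replicate 1 summit of 9.18 at 22 bp upstream of an internal start, at chromosome 1, 91886173. SMAD1 and SMAD2, which encode signal transducers, had replicate 3 summits of 5.25 and 3.13. Chromatin regulators had 7 of 54 (13.0%, 5.37 to 24.9%, 1.26 per Mb). ARID1B, a SWI/SNF subunit gene, scored 3.322 in replicate 2 and 3.599 in replicate 3 at a region 189 kb from its nearest end. CHD9, a remodeller gene, scored 3.90 and 4.07 in the same libraries. HDAC9, a deacetylase gene, had separate summits of replicates 2 and 3 (7.03 and 6.66). The integrin, adhesion and matrix list had 4 of 37 (10.8%, 3.03 to 25.4%, 0.897 per Mb). They included COL4A2 (6.38, replicate 3), COL6A3 (3.82, replicate 2) and ITGAV (6.68, replicate 2), the αV integrin gene.

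Kinase, Wnt and interferon lists had 1 or 2 such genes each. The receptor tyrosine kinase and MAPK list had 1 of 36 (2.78%, 0.0703 to 14.5%), EGFR (0.207 regions per Mb over the list), with a replicate 3 summit of 4.52. The PI3K, AKT and mTOR list had 2 of 23 (8.70%, 1.07 to 28.04%, 0.641 per Mb), among them PIK3R3. PIK3R3, a regulatory subunit gene, had a replicate 3 summit of 9.27 at 14 bp downstream of an internal start. The Wnt list had 1 of 37 (2.70%, 0.0684 to 14.2%, 0.307 per Mb), BCL9, with a replicate 3 summit of 3.84. Innate sensing and interferon genes had 2 of 35 (5.71%, 0.700 to 19.2%) and 2.81 regions per Mb. JAK1 had 2 replicate 3 summits of 5.73 and 5.99, and ADAR, an RNA-editing enzyme gene, had 1 of 7.50. No gene of the epithelial and mesenchymal list (0 of 23, exact upper limit 14.8%), the MHC class I list (0 of 19, 17.6%) or the SOX family (0 of 14, 23.2%) had one.

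Among the lists reported, those of the longest genes had few regions per Mb. The common fragile site and very long genes, with a median length of 1184 kb, had 7 of 30 (23.3%, 9.93 to 42.3%) at 0.256 regions per Mb, PTPRN2 first, then GPHN with 2 regions and CNTNAP2 with 1. Synaptic and neuronal genes had 2 of 43 (4.65%, 0.568 to 15.8%) at 0.0872 per Mb, among them ROBO1 with a replicate 3 summit of 4.77. Blood lineage genes, which mark cells that a breast cancer line should not hold, had 2 of 19 (10.5%, 1.30 to 33.1%) and 3.28 regions per Mb, the highest of the lists, ETS1 and RUNX1, both also used outside blood. The KRAB zinc finger list had 2 of 74 (2.70%, 0.329 to 9.42%, 0.715 per Mb), ZNF43 with replicates 1 and 3 and ZNF273 with replicate 2. The 95% intervals of 12 of the 15 shares hold 3.53%, and the exceptions, above it, are the Hippo, chromatin and long gene lists. The intervals cover counting error and not gene length, and nothing particular to a list can be read from them.

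Scores were used by the rule, so they are a description. The members had a median score of 5.56, 5.07 and 5.17 in replicates 1 to 3, with lowest values of 2.85, 2.45 and 2.68. Summits outside coding genes had medians of 6.57, 6.05 and 5.69 in the same range. A score of 15 or more excluded 9, 9 and 10 gene-body summits. Just inside the limit were LOC102724250 and ATN1 in replicate 1 (14.6 and 12.6), RAB11FIP3, DCDC2C and VPS13D in replicate 2 (13.1, 13.1 and 12.5) and DUX4, TMEM242 and OPRL1 in replicate 3 (14.9, 14.2 and 14.1). Just outside were TMEM242, BANP and PFKFB2 with YOD1 in replicate 1 (16.6, 18.3 and 21.05), CUL4A, OPRL1 and ARHGEF18 in replicate 2 (15.5, 15.8 and 29.9) and UBE2D3, LOC102724250 and CUL4A in replicate 3 (15.7, 16.2 and 16.5). Genes with summits on both sides of the limit included TMEM242, OPRL1, CUL4A, LOC102724250, BANP, YOD1 with PFKFB2, UBE2D3 and FAM120B.

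Genes of other classes were the last feature examined. The share within 1 kb of an end of a non-coding gene or pseudogene was 14.05% in replicate 1 (17 of 121, exact 95% interval 8.40 to 21.5%), 8.46% in replicate 2 (4.30 to 14.6%) and 19.9% in replicate 3 (16.3 to 23.9%), a mean of 14.1% ± 5.73 (SD, n = 3), while 2.94% of the gene-body length is that close. The shares were 29.7%, 26.0% and 32.6% for summits outside coding genes. Of the 119 gene-body summits concerned, 86 were nearest to a long non-coding RNA, 11 to a microRNA, 9 to a pseudogene and 8 to a transcribed pseudogene.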

How the data were processed

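SOX4 ChIP-seq summits of 3 BT549 libraries were analysed. Per the submitters' processing notes the authors used BWA, SAMtools and MACS2, with no versions, and the notes name hg19, while contig names and positions are those of GRCh38. The deposited score is a −log10 p or q value per 1 bp summit, called in each library separately, and no source used here says which of p and q it is. Read depth is unknown, so the number of summits and their scores cannot be set against it.

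Summits were placed on the RefSeq GRCh38 gene table by their end position. A coding gene here is a protein-coding entry, its body is the span over 1 kb from every coding gene end, and exons, introns and repeats were not told apart. Strands and starts came from the RefSeq promoter table, which gave 30263 starts on the chromosomes used. It gave the strand of 12874 of the 15704 coding genes with a body. Positions along a gene refer to the shortest coding gene that holds the summit, and 479 of these 546 genes had a strand. A summit was shared when another library had one within 200 bp, and summits closer than that were joined into regions. Shares have exact Clopper-Pearson intervals, which cover counting error only. Differences were tested by an exact two-sided sign-flip permutation over the 3 libraries, whose shares are not independent because a shared pair counts in each of its libraries. Python 3.11.15, numpy 2.4.6, pandas 2.3.3, scipy 1.17.1 and matplotlib 3.10.9 were used, and the counting was checked on simulated data.

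Members, gene lists and tests were chosen with earlier results of these data known. Named were the regions of 3 libraries and the first 10 of 2 libraries by worst within-list score rank, the 10 genes with most regions, up to 3 genes of each of 16 lists, and 3 summits on either side of a score of 15. Of the lists, 15 are reported, and 1 list and a few genes that the rule names are not reported here. Alternatives varied the score limits, list length, distances, chromosomes, sharing window and libraries. The share of summits with a SOX motif, and its narrower window, were not run because no genome sequence was used here. Motifs were searched in the promoter windows instead.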

Additional observations from a re-analysis of the deposited data

Results flagged for a closer look

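Chromosome X was outside the chromosomes used, yet it held gene-body summits of the same kind. There were 19 with a score under 15, 6 from replicate 1, 5 from replicate 2 and 8 from replicate 3, and 8 of the 19 had a summit of another library within 200 bp. No control library was used, so this count has no background to be set against.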

How the results depend on the processing

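No paired analysis was possible because there is no second group to pair the 3 libraries with, and differences between places were taken within each library. Of 85 values computed under alternatives, 69 stayed within the limits set for them and 16 moved, and none reversed. The limits were wide. Counts were allowed a set fold change, shares the SD of the main value over the 3 libraries, and differences any change of the same sign. Only the differences could reverse, and the sharing window cannot alter the number of summits, so the tally is no measure of stability. The 708 summits became 386 with scores of at least 5, 312 with the best 1368 summits of each list, 1438 over all autosomes, and 251 to 587 when 1 library was left out. The 61 regions of at least 2 libraries became 31, 35, 112 and 24 to 33 under the same settings, and the 554 genes 322, 252, 896 and 219 to 495. These settings change how many summits enter. The share near an annotated start, 33.4%, was 22.3% over all autosomes and 21.7% within 250 bp, and 29.0 to 39.3% with 1 library left out. The shared share differed from summits outside coding genes by −7.06 to −18.7 points, and from those at gene ends by −2.10 to −21.0 points. Each mean difference kept its sign, but with 2 libraries the smallest p is 0.5. Single libraries did not always keep it. Against gene ends, the 2 libraries left differed in direction without replicate 1 and without replicate 3. Nor were all 3 libraries lower there with a 100 bp window, lists of equal length or either change of score limits. Of 24 named regions, 24 kept their number of libraries at 2 kb from gene ends, over all autosomes and with a 500 bp window, and 18 did at 5 kb, at a score of 5 or with a 100 bp window. With no upper score limit 22 did, and with lists of equal length 17. Only 5 did without replicate 1, 1 without replicate 2 and 4 without replicate 3, where regions of 3 libraries must lose 1. At least 2 libraries remained in 18, 15 and 18 of the 24. The alternatives for regions of at least 2 libraries and for starts were chosen after seeing the data. Depth limits are unknown.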

Other observations

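Small RNA genes stood beside some gene-body summits, named here after their values were seen. The replicate 1 summit in CUL4A lay 11 bp from an end of MIR8075. In KLF7, the 2 replicate 1 summits and the replicate 3 summit lay 94 to 346 bp from MIR7845. In ETS1 the replicate 2 summit (7.20) lay 93 bp and a replicate 3 summit (4.79) 119 bp from MIR6090, and in RBBP8, a DNA end resection gene, replicates 2 and 3 lay 117 and 158 bp from MIR4741. CLASP1, a microtubule-binding protein gene, had 2 replicate 3 summits 101 and 386 bp from RNU4ATAC, a minor spliceosome RNA gene. A replicate 3 summit in FBXO31 lay 27 bp from the tRNA gene TRM-CAT6-1, and one in RHOU lay 26 bp from the 5S rRNA gene RNA5S17.

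The replicate 1 summit of LOC102724250 at chromosome 1, 629625 (score 14.6), lay 15 bp from MTND2P28, a nuclear copy of a mitochondrial gene, and the replicate 2 summit at 629664 scored 30.0. Reads from the mitochondrial gene and its nuclear copy were not told apart here.

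Regions also stood near each other. Of the 632, 82 (13.0%) had another within 10 kb, in 41 genes.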
